A study of Mus musculus with 8 samples.

Results

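The 5 genes described here are the light chains of striated muscle myosin, Myl1, Mylpf, Myl2 and Myl3, and Mylk2, the kinase of skeletal muscle light chains. They were taken from a fixed list of names, matched to the Ensembl identifiers of the count table through GENCODE. Of the 5, 4 were found among the 19857 genes of the table used, and Myl3 was not analysed here. Myl1, Mylpf and Mylk2 had enough counts to be among the 5066 genes tested, whereas Myl2 did not.

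Mid-tongue cryosections from female mice aged 12 months supplied the RNA, 4 wild type (WT) and 4 carrying PABPN1A17/+, here A17/+. The A17/+ mice model oculopharyngeal muscular dystrophy, which weakens eyelid, throat and limb muscles late in life and is caused by a lengthened alanine stretch in the nuclear poly(A)-binding protein PABPN1. The A17 allele was the only difference between the groups that the labels named, and neither group carried a stated treatment. Molecules were counted at their 3' ends by mcSCRB-seq, in which a unique molecular identifier (UMI) lets copies made by amplification count once. Each library was described as 1 mouse, so p-values measure the spread between mice of a group. Because whole tissue was sampled, a difference in the share of muscle fibres and one in RNA per fibre cannot be told apart.

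Muscle myosin is a motor with paired heavy chains, and each heavy chain neck is wrapped by an essential and a regulatory light chain that stiffen the lever arm and tune its speed and force. In fast fibres the essential chain comes from Myl1 and the regulatory chain from Mylpf, while slow fibres and the heart ventricle use Myl3 and Myl2. Calcium released on stimulation binds calmodulin, calmodulin switches on the kinase encoded by Mylk2, the kinase adds a phosphate to the regulatory chain and so raises force at low calcium, and a myosin phosphatase takes the phosphate off. The tongue is a muscle organ made mostly of fast fibres under a keratinised epithelium.

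Libraries held 205696 to 465014 UMIs in WT and 395061 to 485326 in A17/+ (exact permutation p = 0.114), and 11339 to 14164 against 14219 to 14437 detected genes (exact permutation p = 0.0286). The share of counts in transcripts under 1000 nt was 7.14% ± 0.924 for WT and 10.7% ± 1.77 for A17/+ (mean ± SD, 4 libraries each; exact permutation p = 0.0571). The library A17/+ 1, at 8.35%, lay inside the WT range of 6.40% to 8.48%. Mitochondrial transcripts held 4.17% to 6.43% of the counts in WT libraries and 7.24% to 10.98% in A17/+ libraries (exact permutation p = 0.0286), and their part in the results was not tested beyond the alternative that leaves them out. WT 1 stood apart from its group, with 923 counts of salivary gland markers against at most 3 in the other WT and 5 to 20 in the A17/+ libraries, and none of these markers passed the filter. Calls that moved without A17/+ 1, or without both libraries numbered 1, are given beside the results. Striated muscle was present in all 8 libraries: the 11 fast fibre markers summed to 25927 to 37959 CPM (counts over the scaled library size, in the usual unit) in WT and 40353 to 44923 in A17/+. Slow fibre markers summed to 287 to 365 CPM and 331 to 356 CPM, and the slow troponin Tnni1 had 3 counts in all WT and 2 in all A17/+ libraries. The slow sum covers 6 of 8 listed markers, without the slow heavy chain Myh7. The fast sum includes the heavy chains Myh4 and Myh1, so the sums are of unlike lists.

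Myl1 and Mylpf were both called higher in A17/+ in the reported fit, though the Mylpf call was near the threshold and was lost in some alternatives. For these genes the sequence upstream of the RefSeq start sites is shown (GRCm38.p6). The RefSeq promoter table held 4 of the 5 members. Both stretches lie inside the GENCODE gene spans given below, so the annotated genes begin further upstream. Capitals mark the E-box CANNTG, the motif of myogenic bHLH factors, and the TATA motif TATAAA, each searched on both strands. On the Myl1 strand the TATA match reads in reverse complement. For Myl1 only 147 of the 250 bases before the RefSeq start are shown, and none before the start at 66935354 described below.
Mylpf, chr7:127211358-127211607, plus strand: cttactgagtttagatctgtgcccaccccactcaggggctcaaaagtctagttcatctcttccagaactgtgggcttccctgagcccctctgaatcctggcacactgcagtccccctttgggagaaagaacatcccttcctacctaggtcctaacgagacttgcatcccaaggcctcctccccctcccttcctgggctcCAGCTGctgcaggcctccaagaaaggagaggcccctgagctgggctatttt
Myl1, chr1:66945144-66945290, minus strand: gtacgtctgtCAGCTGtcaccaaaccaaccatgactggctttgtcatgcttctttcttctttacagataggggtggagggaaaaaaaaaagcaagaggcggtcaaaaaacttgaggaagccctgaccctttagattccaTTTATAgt
Each stretch held 1 E-box, and in both it read CAGCTG. That hexamer was present in 16.3% of the 32851 promoter windows of 300 bases in the RefSeq table, and in windows listed under 3 members, Myl1, Mylpf and Myl2. The hexamer was singled out after the matches were seen. The windows listed for Myl2 end at or before 122093238 on chromosome 5. They lie upstream of the annotated Myl2 gene, which starts at 122100951, so the Myl2 match is not next to that start. Any E-box occurred in 72.3% of all windows and TATAAA in 13.6%, and the MEF2 core motif, found in 3.69% of all windows, was in none of the members' windows. These matches describe letters only.

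Myl1 encodes the essential light chain of fast fibres (ENSMUSG00000061816, chr1:66924295-66945404 of GRCm38, minus strand). Its level was 481, 362, 399 and 477 CPM in WT libraries 1 to 4 and 602, 1864, 1418 and 1930 CPM in A17/+ libraries 1 to 4. Every A17/+ library was above every WT library, but A17/+ 1 lay close to the highest WT value and the other 3 lay far above it. Means were 430 ± 58.9 CPM in WT and 1453 ± 611 CPM in A17/+ (mean ± SD, 4 libraries each). The log2 fold change was 1.76 ± 0.31 (SE), a 3.38-fold difference with a 95% interval of 2.12 to 5.37 and an edgeR adjusted p of 0.00635. The exact permutation test of its CPM gave p = 0.0286, the smallest that 4 against 4 libraries allow. Over all tested genes 6.34% were called higher in A17/+ and 2.61% lower, 8.94% in either direction, and in 8.57% all 4 A17/+ CPM exceeded all 4 WT CPM. Under scaling by library totals alone, which shifted the median of all genes by -0.12, 279 genes were called higher and 289 lower, against 321 and 132 with TMM scaling. Myl1 ranked 149 of the 5066 tested genes by log2 fold change.

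The Myl1 difference passed the threshold in each of the 21 alternative ways of processing, at log2 values from 1.03 to 2.08. The lowest came from removing the trend of counts with transcript length (edgeR adjusted p = 0.00696). The highest came from leaving out both libraries numbered 1. Variation among A17/+ mice was wide: the coefficient of variation of Myl1 was 42.1% there and 13.7% in WT, where counting error alone gives 4.36% and 8.65%. The gene makes a long and a short essential chain, known as MLC1f and MLC3f, from alternative start sites. The annotated starts of these forms lie at 66945143 and 66935354 on chromosome 1. They lead to 3' ends at 66924295 and 66924298, so counts at the 3' end do not separate the forms.

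Mylpf encodes the fast regulatory light chain, the substrate of Mylk2 (ENSMUSG00000030672, chr7:127208890-127214298, plus strand). Its level was 1103, 1154, 1222 and 1772 CPM in WT libraries 1 to 4 and 1398, 2327, 2173 and 2260 CPM in A17/+ libraries 1 to 4. The groups overlapped, since A17/+ 1 was below WT 4, and the other 3 A17/+ libraries were above every WT value. Means were 1313 ± 310 CPM in WT and 2039 ± 432 CPM in A17/+ (mean ± SD, 4 libraries each). The log2 fold change was 0.64 ± 0.19 (SE), 1.56-fold with a 95% interval of 1.17 to 2.07 (edgeR adjusted p = 0.0483). The exact permutation test of its CPM gave p = 0.0571.

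The Mylpf call was close to the threshold and did not hold in 12 of the 21 alternatives. It was lost on leaving out any 1 of WT 1, WT 2, WT 3, A17/+ 2, A17/+ 3 and A17/+ 4, with log2 values between 0.52 and 0.61. Leaving out A17/+ 1 gave 0.74 (edgeR adjusted p = 0.00771), and leaving out WT 4 gave 0.77. Removal of the length trend turned the sign, to -0.20 (edgeR adjusted p = 0.570). DESeq2 gave 0.62 and limma-voom 0.64, both without a call.

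**Figure D1:**
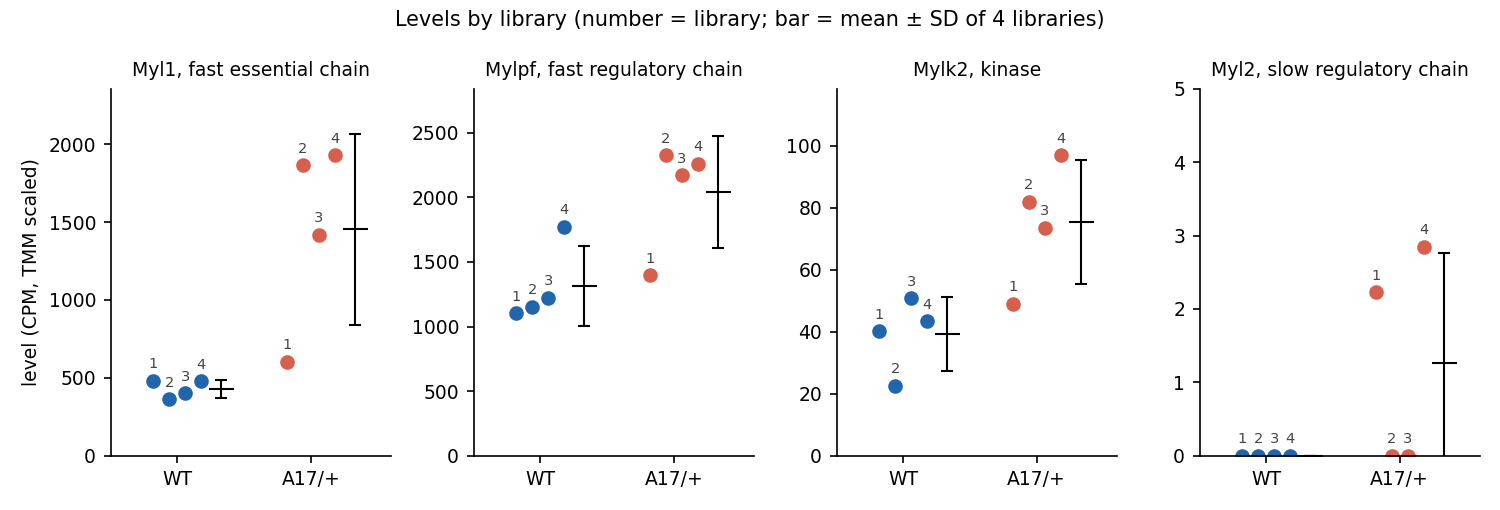
Level of each counted member in CPM with TMM scaling (vertical axes from 0, scaled per gene) in the 4 WT (blue) and 4 A17/+ (red) libraries, with mean and SD bars and the library number beside each point. A17/+ 1 lies nearest WT for Myl1 (602 CPM), Mylpf (1398 CPM) and Mylk2 (49.0 CPM), and Myl2 has a count in only 2 libraries.

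Mylk2 encodes the calcium and calmodulin dependent kinase of skeletal muscle that phosphorylates Mylpf (ENSMUSG00000027470, chr2:152911352-152923068, plus strand). It was counted 18, 7, 15 and 8 times in WT libraries 1 to 4 and 22, 29, 26 and 34 times in A17/+ libraries 1 to 4. These counts correspond to 40.1, 22.6, 50.8 and 43.3 CPM in WT and to 49.0, 81.9, 73.5 and 96.9 CPM in A17/+. A17/+ 1 was again the lowest of its group, just below WT 3, and the other 3 lay above every WT library. Means were 39.2 ± 11.9 CPM and 75.3 ± 20.03 CPM (mean ± SD, 4 libraries each). The log2 fold change was 0.94 ± 0.30 (SE), 1.91-fold with a 95% interval of 1.23 to 2.98, and it did not pass the threshold (edgeR adjusted p = 0.0630; exact permutation p of CPM = 0.0571).

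Without A17/+ 1 the Mylk2 value was 1.06 and passed (edgeR adjusted p = 0.0213). Without both libraries numbered 1 it was 1.13 and passed as well (edgeR adjusted p = 0.0218). It missed the threshold in the other 19 alternatives, among them removal of the length trend, which left it at 0.92. With so few molecules, counting error alone gives a coefficient of variation of 28.9% in WT, against 30.4% observed.

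Myl2, the regulatory chain of slow fibres and of the heart ventricle, was almost not counted (ENSMUSG00000013936, chr5:122100951-122113472, plus strand). All 4 WT libraries had 0 counts, and the A17/+ libraries 1 to 4 had 1, 0, 0 and 1. A count of 0 over the WT group's 1282497 UMIs allows up to 3 counts, or 2.34 CPM of the total, which covers counting error only. Over all libraries there were 2 Myl2 and 4553 Mylpf molecules. No genotype difference of Myl2 was detectable at this depth (exact permutation p = 0.429). Part of its gene overlaps Ccdc63 on the opposite strand, and whether counting used strand is not given in the sources used here.

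The slow and cardiac markers analysed, 6 of 8 and 3 of 7 listed genes, were low throughout. Cardiac markers summed to 40.1 to 135 CPM in WT and 20.1 to 65.0 CPM in A17/+, and the atrial heavy chain Myh6 had 3 counts in all WT and 4 in all A17/+ libraries. The cardiac troponin Tnnt2, also made by immature fibres, was at 75.1 ± 42.6 CPM in WT and 35.6 ± 17.3 CPM in A17/+ (mean ± SD, 4 libraries each), and was not called in the reported fit (log2 fold change -0.98; edgeR adjusted p = 0.151, unadjusted 0.0312). It was called lower with the length trend removed (-1.46; edgeR adjusted p = 0.0317). The same call came with no filter on low counts (-1.04; edgeR adjusted p = 0.0420) and without WT 1 (-1.30; edgeR adjusted p = 0.0294). The remaining alternatives did not call it. Of 4 tested slow fibre markers none was called higher by edgeR, against 6.34% higher and 2.61% lower over all tested genes. Tpm3, a tropomyosin gene on the slow list, was lower with a log2 fold change of -0.92 (edgeR adjusted p = 0.0359). Tpm3 stood at a mean of 130 CPM in WT, where Tnni1 had 3 counts in all, and its source among cell types was not tested. The other tested slow markers had positive values without a call, Casq2 0.82, Myoz2 0.79 and Atp2a2 0.26, and the median of the 4 was 0.52. At an unadjusted p under 0.05 were Tpm3, Casq2 and Myoz2. DESeq2 called only Tpm3, and limma-voom called 0 of the 4. The Tpm3 call was also lost with thinning to the smallest library and when WT 2, WT 3, WT 4, A17/+ 3 or A17/+ 4 was left out.

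In CPM and per kilobase of transcript, the order of levels was the same in both groups: Mylpf, then Myl1, then Mylk2. Each molecule is counted once at its 3' end, so the CPM given above compare molecules between genes. Division by transcript length, as in the values below, widens the gap between the short light chains and Mylk2. Mylpf stood at 1850 ± 437 CPM per kilobase in WT and 2875 ± 610 in A17/+ (mean ± SD, 4 libraries each). Myl1 stood at 513 ± 70.2 and 1733 ± 729, and Mylk2 at 13.3 ± 4.04 and 25.5 ± 6.79. Mylpf was above Myl1 in each of the 8 libraries on both scales. Among the 5066 tested genes ranked by CPM, Myl1 moved from place 250 in WT to 53 in A17/+, Mylpf from 57 to 41 and Mylk2 from 3626 to 2215.

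A ratio of 2 genes in the same library removes the scaling between libraries. Myl1 counts were 43.7%, 31.5%, 32.8% and 27.0% of Mylpf counts in WT libraries 1 to 4, and 43.1%, 80.1%, 65.3% and 85.4% in A17/+ libraries 1 to 4. The A17/+ 1 value fell just below that of WT 1, and the other 3 A17/+ values were well above the WT range. The mean log2 ratio was higher by 1.00 in A17/+, but 4 ratios were compared and this one had an exact permutation p of 0.0571, adjusted 0.114. Put as a share, Myl1 made up 25.02% ± 3.86 of all Myl1, Mylpf and Myl2 counts for WT and 40.0% ± 7.19 for A17/+ (mean ± SD, 4 libraries each). Within single libraries the 95% Wilson interval of this share ran from 27.2% to 33.1% in A17/+ 1 and from 43.5% to 48.6% in A17/+ 4, counting error only.

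Both fast light chains were also set against Myh4, the heavy chain of IIb fibres. Myl1 counts were 2.68%, 2.46%, 1.98% and 2.40% of Myh4 counts in WT libraries 1 to 4 and 3.35%, 8.95%, 8.97% and 10.8% in A17/+ libraries 1 to 4. All 4 A17/+ ratios were above all 4 WT ratios, with A17/+ 1 near WT. The log2 difference was 1.63 (exact permutation p = 0.0286, adjusted over the 4 ratios 0.114). Mylpf counts were 6.14%, 7.81%, 6.03% and 8.88% of Myh4 in WT and 7.77%, 11.2%, 13.7% and 12.6% in A17/+. Here A17/+ 1 fell inside the WT range, and the log2 difference was 0.64 (exact permutation p = 0.0857, adjusted 0.114). Whether the Myl1 to Myh4 and Mylpf to Myh4 differences are unequal is the Myl1 to Mylpf comparison above, which missed the threshold.

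For the kinase and its substrate the groups overlapped broadly. Mylk2 counts were 3.73%, 2.098%, 4.29% and 2.60% of Mylpf counts in WT and 3.59%, 3.58%, 3.44% and 4.35% in A17/+. The A17/+ values lay almost wholly within the WT range. The log2 difference was 0.28 (exact permutation p = 0.371, adjusted 0.371), and 1 of the 4 A17/+ ratios was above every WT ratio.

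Leaving out A17/+ 1 raised the differences in log2 ratio to 1.20 for Myl1 to Mylpf, 0.81 for Mylpf to Myh4 and 2.01 for Myl1 to Myh4. Each then had an exact permutation p adjusted over the 4 ratios of 0.0381. For these ratios the remaining A17/+ libraries already lay above every WT library. Leaving out A17/+ 1 therefore separated the groups fully, and the unadjusted p took the smallest value possible. These p-values add no support to the differences. For Mylk2 to Mylpf the difference was 0.30 (adjusted exact permutation p = 0.400).

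**Figure D2:**
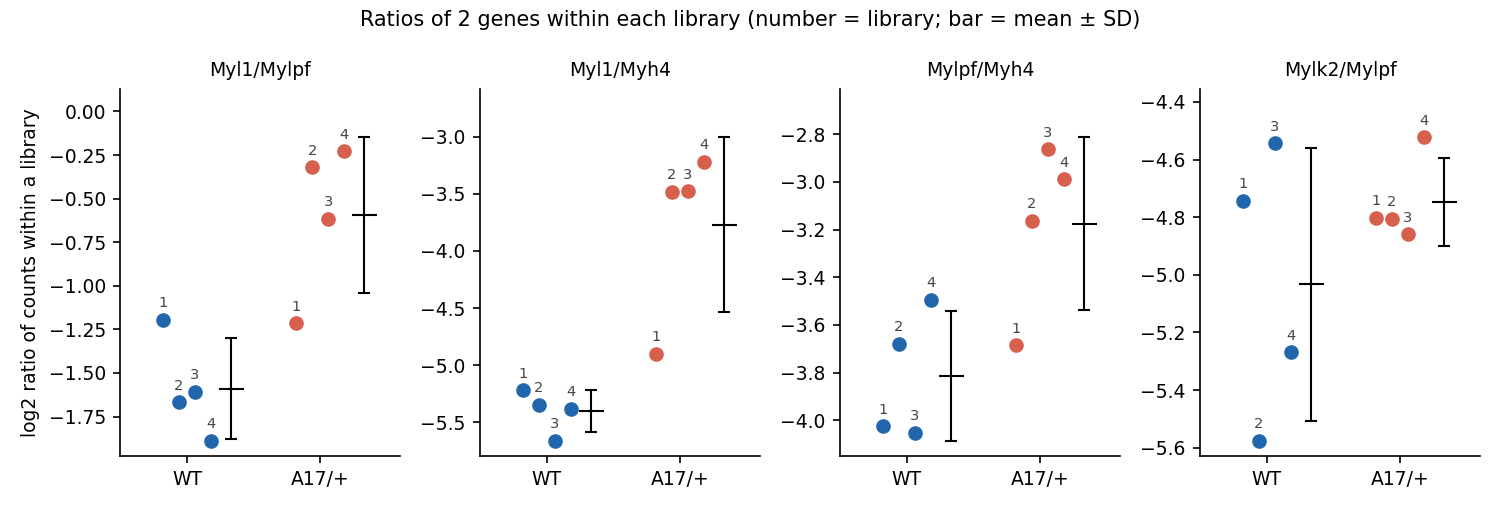
Log2 ratio of the counts of 2 genes within each library (vertical axes scaled per ratio), WT in blue and A17/+ in red, with mean and SD bars and the library number beside each point. Myl1 to Myh4 is higher in all 4 A17/+ libraries, Myl1 to Mylpf and Mylpf to Myh4 in 3 of 4, and Mylk2 to Mylpf overlaps broadly.

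The heavy chains that the light chains bind did not pass the threshold. Myh4 stood at 18267 ± 2531 CPM in WT and 18152 ± 2062 CPM in A17/+ (mean ± SD, 4 libraries each), a log2 fold change of -0.01 with a 95% interval of -0.36 to 0.34. Myh1, the heavy chain of IIx fibres, stood at 7567 ± 1834 CPM and 10872 ± 1555 CPM, with a log2 fold change of 0.52 (edgeR adjusted p = 0.102). Myh2, of IIa fibres, was at 199 ± 68.7 CPM and 268 ± 154 CPM. None of the 4 tested striated heavy chain genes of the 9 listed was called by edgeR, DESeq2 or limma-voom. Over all tested genes edgeR called 8.94% in either direction, and no call among so few genes is near that share. The median log2 fold change of the 4 was 0.25, and 1, Myh1, had an unadjusted p under 0.05. Myh3, Myh6 and Myh13 had too few counts, and Myh7 and Myh7b were not analysed here. Summed as counts, Myl1 and Mylpf were 6.1%, 7.6%, 5.6% and 7.7% of Myh1, Myh2 and Myh4 in WT libraries 1 to 4. The A17/+ libraries 1 to 4 had 6.8%, 14.1%, 13.2% and 13.7%. Each molecule is counted once at its 3' end, so a further division by transcript length does not give shares of molecules. Per kilobase of transcript the light chains were 48.7%, 62.0%, 45.4% and 62.7% of these heavy chains in WT libraries 1 to 4. In A17/+ libraries 1 to 4 they were 54.3%, 111%, 105% and 107%. On both scales A17/+ 1 was again within the WT range and the other 3 were above it.

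The other myosin light chains, which serve embryonic, smooth muscle and non-muscle myosins, were rare. Of 8 listed genes 7 were found and 2 tested, and Myl12a was called higher, with a median log2 fold change of 1.46. Myl12a encodes a regulatory chain of non-muscle myosin and stood at 17.8, 19.4, 37.2 and 16.3 CPM in WT and 22.3, 141, 96.1 and 88.4 CPM in A17/+ libraries 1 to 4. As for the skeletal chains, A17/+ 1 was low and the other 3 were high. The log2 fold change was 1.89 ± 0.50 (SE; edgeR adjusted p = 0.0291). It was not called in 8 of 20 alternatives, among them length trend removal (1.28; edgeR adjusted p = 0.0654) and any 1 WT library left out. Counts of Myl12a are uncertain because Myl12b is a near-identical copy, and the latter had 4 counts in WT and 28 in A17/+. The smooth muscle chain Myl9 had a log2 fold change of 1.03 without a call (edgeR adjusted p = 0.208). Myl4, the embryonic and atrial essential chain, had 9 counts in WT and 27 in A17/+, and Myl6, the non-muscle essential chain, 23 and 56.

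Calm2 and Calm3, genes of the calcium sensor calmodulin that activates Mylk2, were higher in A17/+, and for both every A17/+ library exceeded every WT library. Calm2 stood at 52.7 ± 9.54 CPM in WT and 119 ± 24.2 CPM in A17/+ (mean ± SD, 4 libraries each), with a log2 fold change of 1.16 (edgeR adjusted p = 0.00884). Calm3 stood at 18.2 ± 5.95 CPM and 45.1 ± 10.4 CPM, with a log2 fold change of 1.21 (edgeR adjusted p = 0.0367). Over all tested genes the median was 0.01. A17/+ 1 was thus apart from WT for both, as for Myl1 and unlike Mylpf and Mylk2. DESeq2 and limma-voom called Calm2 and not Calm3, and with the length trend removed Calm2 fell to 0.64 without a call (edgeR adjusted p = 0.0996). The Calm3 call was lost in 9 of 20 alternatives, among them the replicate block, no filter on low counts, and any 1 of WT 2, WT 3, WT 4, A17/+ 3 and A17/+ 4 left out. Calmodulin serves many enzymes in every cell type of the tongue, and its source among them was not tested.

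The other light chain kinases passed no threshold, with a median log2 fold change of -0.27. Mylk4, a striated muscle kinase, was at 655, 465, 704 and 872 CPM in WT and 486, 251, 678 and 616 CPM in A17/+, with a log2 fold change of -0.40 (edgeR adjusted p = 0.385). Mylk, the smooth muscle and non-muscle kinase, had a log2 fold change of -0.15 (edgeR adjusted p = 0.753), and Mylk3, the cardiac kinase, had 8 counts in WT and 6 in A17/+. Neither tested kinase of this list had an unadjusted p under 0.05, and DESeq2 and limma-voom called 0. The share called by edgeR in either direction over all tested genes was 8.94%.

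On the opposing side, 4 of 9 listed genes of the myosin phosphatase were tested, and edgeR, DESeq2 and limma-voom each called 0, with 0 at an unadjusted p under 0.05. The catalytic subunit gene Ppp1cb had a log2 fold change of 0.26 and the skeletal targeting subunit gene Ppp1r12b one of 0.08. The median of the 4 was 0.17. Among all tested genes edgeR called 8.94% in either direction, and no call among so few is near that share. Without both libraries numbered 1, 1 of the 4 was called higher.

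Genes that fold myosin or bind the thick filament were mixed. Of 8 tested genes 3 were called higher and 0 lower, against 6.34% higher over all tested genes, with a median log2 fold change of 0.45, and DESeq2 called 3 and limma-voom 1. Unc45b, a myosin chaperone, stood at 20.6 ± 4.98 CPM in WT and 59.8 ± 19.8 CPM in A17/+ (log2 fold change 1.46; edgeR adjusted p = 0.0139). Smyd1, a muscle methyltransferase that works in myosin assembly, stood at 54.0 ± 18.9 CPM and 121 ± 16.3 CPM (log2 fold change 1.16; edgeR adjusted p = 0.0117). Mybpc2, the fast myosin binding protein C, stood at 98.3 ± 38.6 CPM and 188 ± 36.3 CPM (log2 fold change 0.93; edgeR adjusted p = 0.0450). Their transcripts are of middle or greater length, 2064 nt for Smyd1, 3555 nt for Unc45b and 3611 nt for Mybpc2, and each was still called with the length trend removed. Mybpc2 lost its call in 9 of 21 alternatives, among them library totals only, thinning, limma-voom and any 1 of WT 2, WT 3, WT 4, A17/+ 1, A17/+ 3 and A17/+ 4 left out. Its lowest value was 0.65, without WT 2. Unc45b and Smyd1 each lost theirs in 2, and both did so without WT 3. M-band genes did not pass, for example Myom2 at 0.26 and Myom1 at 0.14.

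Of 8 tested muscle transcription factor genes 1 was called higher and 0 lower, against 6.34% higher over all tested genes, and their median log2 fold change was 0.47. At an unadjusted p under 0.05 there were 3, and without both libraries numbered 1 edgeR called 2 higher. Mef2c, a factor that acts on many sarcomere genes, stood at 432 ± 58.1 CPM in WT and 638 ± 94.5 CPM in A17/+ (mean ± SD, 4 libraries each; log2 fold change 0.56; edgeR adjusted p = 0.0416). It lost its call in 13 of 21 alternatives, among them DESeq2, limma-voom and edgeR without A17/+ 1 (0.45; edgeR adjusted p = 0.117). The 4 smooth and non-muscle heavy chains had a median of -0.34, with 1 at an unadjusted p under 0.05. Of them edgeR, DESeq2 and limma-voom called 0, where edgeR called 8.94% of all tested genes in either direction. Without both libraries numbered 1, edgeR called 1 of the 4 lower.

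**Figure D3:**
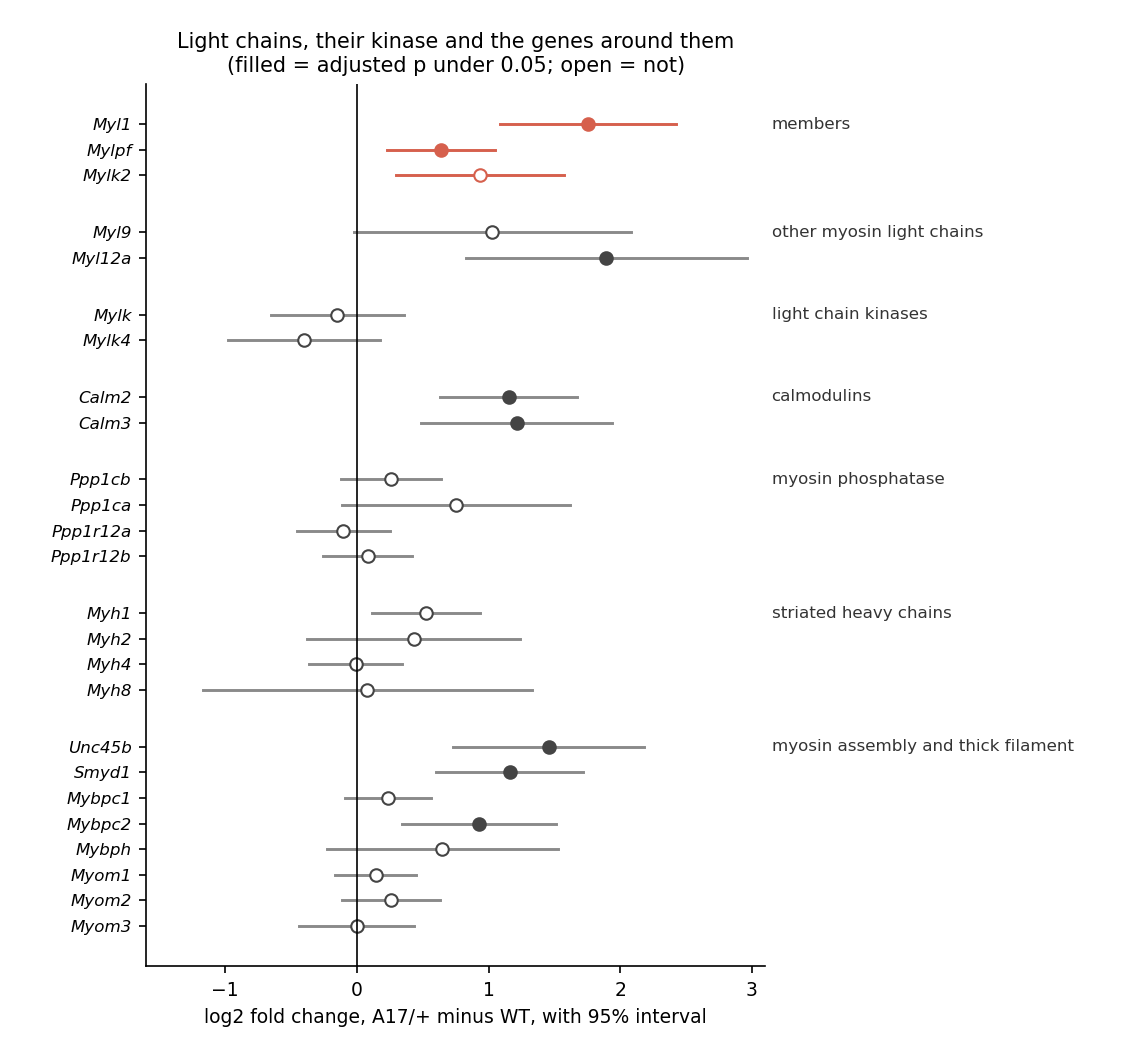
Log2 fold change (A17/+ minus WT, horizontal axis) with its 95% interval for the 3 tested members (red) and the tested genes around them (grey), filled where the edgeR adjusted p is under 0.05. Myl1 (1.76), Calm2 (1.16), Calm3 (1.21) and Unc45b (1.46) lie to the right, and Myh4 (-0.01) lies at 0.

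Some of the other fast fibre genes were also higher. Of the 11 markers 6 were called higher and 0 lower, against 6.34% higher over all tested genes: the troponin genes Tnnc2 and Tnnt3, the Z-disc genes Actn3 and Myoz1, the calcium pump gene Atp2a1 and the calcium buffer gene Pvalb. Their median log2 fold change was 0.68, close to the 0.64 of Mylpf and below the 1.76 of Myl1. The 5 without a call were Myh1 (0.52), Tnni2 (0.49), Myh2 (0.43), Casq1 (0.14) and Myh4 (-0.01). The number called higher was 6 without A17/+ 1 and with DESeq2, 7 without both libraries numbered 1, 5 with limma-voom and 4 with the length trend removed. Marker sums of other cell types were also set side by side. Fibroblast markers summed to 345 to 504 CPM in WT and 524 to 1073 CPM in A17/+. Adipocyte markers summed to 9.70 to 21.7 and 69.1 to 119 CPM, and red blood cell markers to 20.1 to 32.3 and 100 to 1333 CPM. Fabp4 held most of the adipocyte sum, with means of 14.6 CPM in WT and 91.1 CPM in A17/+. Adipoq had 1 count in WT and 4 in A17/+, Plin1 1 and 3, and Cfd 0 and 9. Called higher were 2 of 5 tested fibroblast markers (Col3a1 and Dcn), the 1 tested adipocyte marker (Fabp4) and the 1 tested red blood cell marker (Hbb-bs). Without both libraries numbered 1, 3 fibroblast markers were called, and limma-voom did not call Hbb-bs. Smooth muscle markers summed to 646 to 813 and 647 to 907 CPM, with Acta2 higher among 5 tested, 2 higher without A17/+ 1 or without both libraries numbered 1, and 0 with limma-voom. Tongue epithelium markers summed to 10181 to 10995 and 7849 to 15757 CPM, with Krt76 lower and 0 higher among 8 tested by edgeR. There Krt5 had a log2 fold change of 0.81 (edgeR adjusted p = 0.0942) and Krt13 one of 0.68 (edgeR adjusted p = 0.0501). Called higher were 3 of the 8 without A17/+ 1 and 4 without both libraries numbered 1, each with 1 lower, and with the length trend removed 3 were lower and 0 higher. DESeq2 and limma-voom called 1 lower and 0 higher, and 4 had an unadjusted p under 0.05. Immature muscle markers summed to 15.6 to 92.1 and 24.5 to 77.0 CPM, and the 1 tested, Myh8, had a log2 fold change of 0.08 (edgeR adjusted p = 0.951). The part of cell composition in the light chain differences was not tested.

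Transcript length went with the fold changes. The 291 tested genes with transcripts under 1000 nt, Myl1 (838.5 nt, the median of its transcripts) and Mylpf (709.5 nt) among them, had a median log2 fold change of 0.84, with quartiles of 0.09 and 2.23, and 34.4% were called higher. Myl1 was above that median and Mylpf below it: 92 of the 291 genes had a larger log2 fold change than Myl1 and 166 a larger one than Mylpf. For genes of 1000 to 3000 nt, where Mylk2 lies (2951 nt), the median was 0.09 and 9.21% were called higher. There 226 of 1911 genes exceeded Mylk2. Transcripts over 3000 nt, which include the heavy chains, had a median of -0.08 and 1.57% were called higher. Both light chains are short and the heavy chains long, whereas Myl1 and Mylpf are of like length. The part of transcript length in the light to heavy ratios was not tested.

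**Figure D4:**
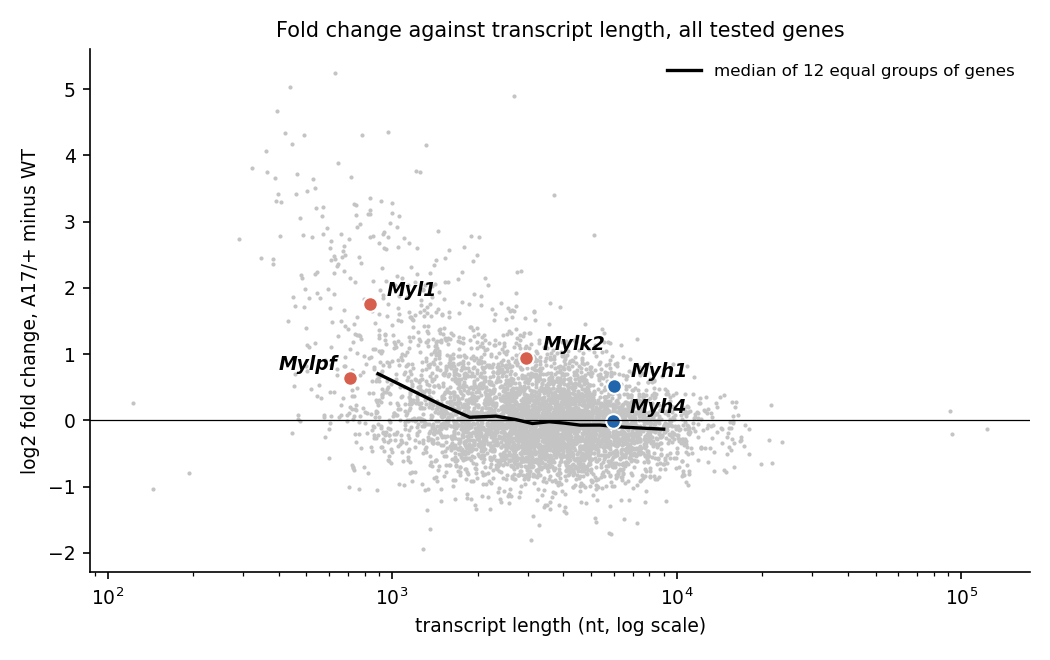
Log2 fold change (vertical axis) against transcript length in nt (horizontal log axis) for the tested genes that have a length, with the median over 12 groups of equal gene number as a black line. Myl1 (1.76) lies above the median of short transcripts (0.84) and Mylpf (0.64) below it. Mylk2 (0.94) lies above the median of genes of 1000 to 3000 nt (0.09).

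The genes whose profile over the 8 libraries was nearest to that of each member were found by the root mean square difference of centred log2 CPM, over 2808 genes. Nearest to Myl1 were Ldha, a lactate dehydrogenase, at 0.14, Mpc2, a mitochondrial pyruvate carrier, at 0.15, and Myoz1, a Z-disc protein, at 0.19. Nearest to Mylpf were Aldoa, the muscle aldolase, at 0.08, Tnni2, fast troponin I, at 0.12, and Igfbp5 at 0.15. Nearest to Mylk2 were Tpm1 at 0.12, Tpm2 at 0.21, both tropomyosins, and Glul, glutamine synthetase, at 0.21. Mylpf was 188th in likeness to Myl1, at 0.59, but 37th in likeness to Mylk2, at 0.31. The points share library depth and the short transcript share, so these are descriptions without a test.

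**Figure D5:**
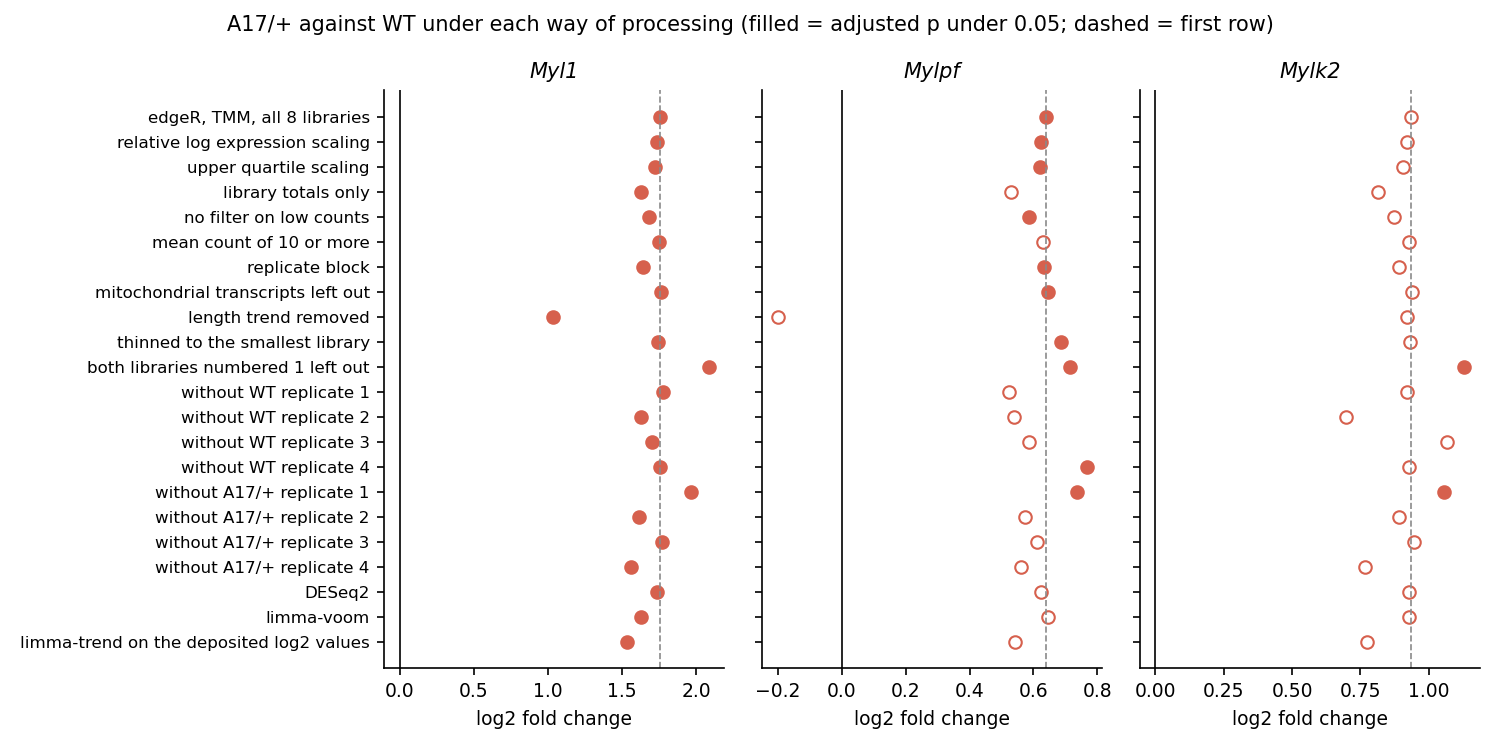
Log2 fold change (horizontal axes, scaled per gene) of Myl1, Mylpf and Mylk2 in the reported fit (top line) and in each of 21 alternatives, filled where the adjusted p is under 0.05. Myl1 is filled throughout (1.03 to 2.08), Mylpf crosses 0 once (-0.20), and Mylk2 is filled in 2 alternatives.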

How the data were processed

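Bulk 3' mcSCRB-seq libraries of 8 tongues were analysed from the deposited table of raw counts per Ensembl gene. Per the submitters' processing notes the authors used cutadapt 2.10, STAR 2.7.5a, UMI-tools 1.1.1, HTSeq and the build mm10, and settings, strand and annotation release are not given in the sources used here. The deposited log2 values of 10709 genes, on a CPM scale by their values, entered 1 alternative only. Symbols, positions and median transcript lengths came from GENCODE for GRCm38 (19675 of 19857 genes matched).

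Genes were filtered with filterByExpr (minimum count 10, minimum total 15), given TMM scaling factors and tested by edgeR's robust quasi-likelihood method (edgeR 4.0.16, R 4.3.3) on genotype alone. Benjamini-Hochberg adjustment ran over the 5066 tested genes, with a threshold of 0.05. Levels are CPM with TMM scaling. Log2 fold changes are A17/+ minus WT, and their SE was derived from the F statistic. Log2 ratios used counts plus 0.5 and two-sided exact permutation of group labels (70 assignments), adjusted over the 4 ratios computed of 8 planned; those with Myl2, Myl3 or Myh7 were not computed. Zero counts were given a limit of 3 counts. A UMI total of 205696 to 485326 means that a gene at 40.1 CPM is about 18 molecules, as for Mylk2 in WT 1.

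Members and gene lists were chosen with earlier results of these data known. The named genes are the members, list genes past the threshold, up to 4 further genes of a list as values, and for each tested member the 3 genes of nearest profile with a mean count of at least 20. Lists covered other light chains, kinases, calmodulins, phosphatase, heavy chains, myosin assembly, muscle transcription factors and 10 kinds of marker. A few genes of the lists are not reported here and are left out of their counts and medians. The edgeR fit and the permutation code were tested on simulated data. Alternatives were other scalings and filters, DESeq2 1.42.0, limma 3.58.1 (voom, and trend on the deposited log2 values), the replicate number as a block, mitochondrial transcripts left out, a loess length trend removed, thinning to the smallest library, and libraries left out.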

Additional observations from a re-analysis of the deposited data

Results flagged for a closer look

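In 16 groups of 4 values screened, a single library stood apart in 2, where chance marks about 1 group in 20. Mylpf in A17/+ 1 was at 1398 CPM, below the other A17/+ libraries by 0.834 of the group's range. The log2 ratio of Myl1 to Myh4 in A17/+ 1 was -4.90, below the others by 0.842 of the range. Both concern the same library, whose share of short transcripts was also the lowest of its group, at 8.35%; the part of that share in the values was not tested.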

How the results depend on the processing

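Myl1 kept its call in all 21 alternatives. The Mylpf value turned to -0.20 with the length trend removed and kept its sign but lost its call with library totals only (0.53), a mean count of at least 10 (0.63), DESeq2 (0.62), limma-voom (0.64), limma-trend (0.54) and single libraries left out (0.52 to 0.77, 6 of 8 without a call). For Mylk2 leaving out single libraries gave 0.70 to 1.07, and leaving out both numbered 1 gave 1.13 with a call. The same leave-one-out gave log2 ratio differences of 0.87 to 1.20 for Myl1 to Mylpf, 0.53 to 0.81 for Mylpf to Myh4 and 1.45 to 2.01 for Myl1 to Myh4.

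The 453 changed genes (321 higher, 132 lower) became 853 (615 and 238) without a filter, 1025 (695 and 330) without both libraries numbered 1, 233 (152 and 81) with limma-voom, and 808 (569 and 239) with limma-trend. Library totals alone gave 289 lower, and single libraries left out gave 210 to 890 (172 to 586 and 38 to 383). Leaving out WT 1 gave 890, A17/+ 1 771, A17/+ 3 247, A17/+ 4 232 and WT 3 210. The causes were not tested.

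Libraries of equal replicate number showed no sign of pairing, with correlations of 0.00, 0.07, -0.10 and -0.16 across genes. Such correlations cannot show whether the mice were paired. With the replicate block 410 genes were called, with Myl1 at 1.64, Mylpf at 0.63 and Mylk2 at 0.89. The differences in log2 ratio were by construction the same, and their adjusted p by exact sign flips ran from 0.250 to 0.500. Low counts limit Mylk2 and Myl2.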
